A study of Mus musculus with 32 samples.

Results

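The genes described here encode the factors with which mouse embryos start and extend polypeptide chains: the eukaryotic initiation factors (Eif genes) and the elongation factors (Eef genes), with the kinases and binding proteins that carry the same names. They were chosen by symbol, as every gene whose name begins with Eif1 to Eif6 or with Eef1 or Eef2, leaving out the Argonaute genes that older annotations call Eif2c, and the symbol rule uses no measured value. This gave 64 genes among the 24013 of the stage table and the same 64 among the 22536 of each knockdown table. All embryos carried a C57BL/6N maternal and a DBA/2N paternal genome, and those of the stage series came from females superovulated with 5 IU each of PMSG and hCG. Their stages were zygote, early 2-cell, 2-cell, 4-cell and 8-cell embryos and the inner cell mass (ICM) isolated by immunosurgery. Oocytes arrested in metaphase of meiosis II (MII) came from C57BL/6N females, 20 h after hCG, and mouse embryonic stem cells (mESC) were the R1 line, grown in LIF and serum. For the knockdowns, 4 libraries of 8-cell embryos injected with siRNA against Nr5a2 were set against 4 control libraries, and 4 libraries of blastocysts from embryos injected with siRNA against Gata4 against 3 control libraries, all cultured in CZB medium with glutamine. Polyadenylated RNA was sequenced by a modified Smart-seq2 protocol from embryos freed of the zona pellucida. An siRNA lowers a transcript and does not delete the gene, and the labels do not state what the control embryos were injected with.

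Initiation begins when eIF2, loaded with GTP and the initiator tRNA, joins eIF1, eIF1A, eIF3 and eIF5 on the small ribosomal subunit. The cap-binding complex eIF4F (eIF4E, eIF4G and the helicase eIF4A) brings the mRNA, and eIF2B recharges spent eIF2 with GTP unless 1 of 4 kinases has phosphorylated it. In elongation eEF1A delivers aminoacyl-tRNA and eEF2 moves the ribosome on by a codon. The fully grown mouse oocyte stores maternal mRNA under translational repression, and most embryonic transcription starts in the 2-cell embryo.

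Values are FPKM (fragment counts scaled to transcript length and to library size), so levels can be compared between genes, and differences are on the scale of log2(FPKM + 1). The stage table holds 1 value per stage for 17 samples, so differences between stages have no replicate error and were not tested. A gene was counted as higher or lower at a stage where it differed by at least 1 log2 unit with at least 5 FPKM in the higher stage. Between 8388 (mESC) and 9580 (2-cell) genes reached 1 FPKM per stage. The MII and early 2-cell columns stood apart from the other embryo stages. They listed the ribosomal RNA precursor Rn45s at 6967 and 6829 FPKM, against 0 in the other embryo columns, and the submitters' notes name no tool for their expression values. The mESC column listed Rn45s at 2555 FPKM, so the step from ICM to mESC also joins columns that differ in this respect. Pluripotency markers summed to 621 FPKM in mESC and 601 FPKM in ICM, and cumulus cell and fibroblast markers were each below 1 FPKM in every stage. ICM held 158 FPKM of trophectoderm markers. Whole blastocysts, whose values were normalized separately, held 2593 to 3420 FPKM in control and 2180 to 4403 FPKM in Gata4 knockdown libraries. In such bulk samples, fewer cells that express a gene and less of its RNA per cell cannot be told apart. Scaling the stages to a common median over 4739 genes moved them by -0.26 (ICM) to 0.55 (mESC) log2 units. Counts that this changes are given both ways, except those by highest stage, which were made on the deposited values only. Of the 64 genes, 20 have a near-identical copy under another gene name, mostly an annotated pseudogene. Reads could have been assigned to the copy, so that the levels of these 20 are uncertain: Eef1a1, Eef1g, Eef2, Eif1, Eif1a, Eif2s1, Eif2s2, Eif2s3x, Eif3e, Eif3h, Eif3j1, Eif3j2, Eif3m, Eif4a1, Eif4a3, Eif4e, Eif4e1b, Eif4e3, Eif4ebp3 and Eif5a. A neighbouring gene overlaps 8 of the 64, on the opposite strand for Eef2kmt, Eif1ad, Eif1b, Eif3d, Eif3j1 and Eif5b and on the same strand for Eif4e3 and Eif4ebp3. For Eif4e3 and Eif4ebp3 this overlapping gene is itself the near-identical copy, which therefore does not lie elsewhere in the genome.

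The translation factors as a group were higher after the 2-cell stage than before it. In the mean over 4-cell, 8-cell and ICM against the mean over MII oocyte, zygote and early 2-cell, 59 of the 64 genes reached 5 FPKM on 1 side, and of these 40 (67.8%) were higher and 8 (13.6%) lower, with a median difference of 2.10 log2 units. Over all 9174 genes at that level, 39.0% were higher and 35.6% lower, with a median of 0.12. After median scaling 39 of 59 were higher and 8 lower, beside 3244 and 3519 of 9012 genes, with a median difference of 1.85 log2 units, against -0.16 over all genes. With the zygote alone as the early stage, which leaves out both columns that stood apart, 42 of 58 were higher and 6 lower, beside 42.1% and 33.0% of 8610 genes. The 8 lower genes were Eif4e1b, Eif4e3, Eef2k, Eif4enif1, Eif2ak4, Eif1b, Eif2ak1 and Eif2b1, of which Eif2ak1 and Eif2b1 no longer reached 1 log2 unit against the zygote alone. The 4 oocyte markers Gdf9, Bmp15, Zp3 and Mos moved with these genes: their sum was 4995 FPKM in MII oocytes, 2357 in zygotes, 1673 in early 2-cell, 184 in 2-cell, 45.5 in 4-cell and 38.4 in 8-cell embryos, 12.9 in ICM and 2.16 in mESC, and their part in the result was not tested. Without the genes that have a near-identical copy, 26 of 40 were higher and 6 lower. The summed FPKM of the 64 genes, as a share of all FPKM without Rn45s, was 0.743% in MII oocytes, 1.03% in zygotes, 1.11% in early 2-cell, 1.67% in 2-cell, 2.57% in 4-cell and 3.08% in 8-cell embryos, 3.03% in ICM and 2.30% in mESC. Their median level was 16.6 FPKM in MII oocytes, 15.8 in zygotes, 13.9 in early 2-cell, 35.2 in 2-cell, 69.6 in 4-cell and 91.8 in 8-cell embryos, 64.7 in ICM and 46.0 in mESC. Of the 61 genes that reached 5 FPKM in at least 1 stage, 16 were highest in the 8-cell embryo, 12 in ICM, 12 in mESC and 9 in the 4-cell embryo. Over all genes at that level the shares were 9.7%, 17.7%, 10.8% and 12.1%, in that order. Another 7 were highest in the MII oocyte, 3 in the early 2-cell embryo, 2 in the 2-cell embryo and 0 in the zygote. The shares over all genes there were 26.2%, 7.5%, 8.0% and 8.1%. Highest stages were not counted again after median scaling.

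**Figure D1:**
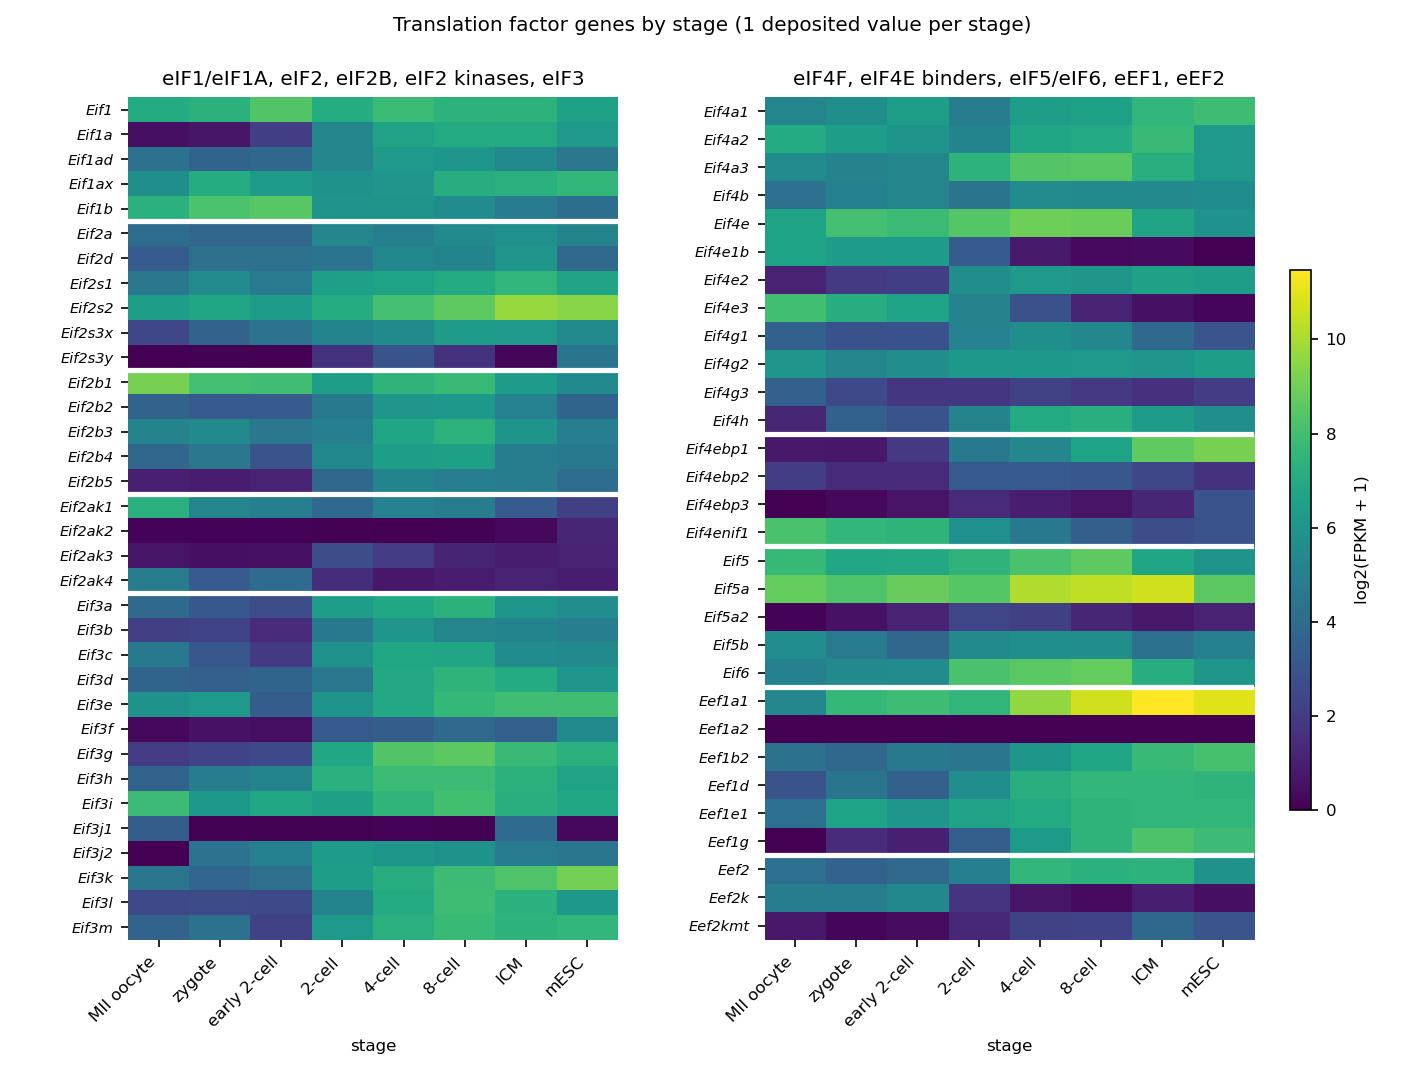
Colour gives log2(FPKM + 1) of each of the 64 translation factor genes (listed by role, white lines between roles) in the 8 stages (columns), 1 deposited value per stage. Most initiation factors are brighter from the 2-cell column on, while Eif4e1b, Eif4e3, Eef2k, Eif4enif1 and Eif1b are brightest in the 3 columns at the left and Eef1a2 is at 0 in every column.

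The eIF3 complex is the scaffold of many subunits that holds the small ribosomal subunit ready for mRNA. Of its 14 genes, 12 were higher in the late stages and 0 lower, beside 39.0% and 35.6% of all genes. The median difference of the eIF3 genes was 3.32 log2 units. The step with the most differences was that from the early 2-cell to the 2-cell column. There 11 of 13 were higher and 0 lower, beside 34.7% and 34.3% of all genes. The same 11 to 0 split was found against the zygote, beside 33.7% and 36.3% of all genes. Eif3g was at 2.98 FPKM in MII oocytes, 3.89 in zygotes, 4.7 in early 2-cell, 117 in 2-cell, 333 in 4-cell and 387 in 8-cell embryos, 218 in ICM and 157 in mESC. Eif3m was at 11.5 FPKM in MII oocytes, 18.5 in zygotes, 3.79 in early 2-cell, 73.3 in 2-cell, 156 in 4-cell and 212 in 8-cell embryos, 172 in ICM and 191 in mESC. Eif3c was at 23.9 FPKM in MII oocytes, 7.65 in zygotes, 2.84 in early 2-cell, 57.1 in 2-cell, 116 in 4-cell and 108 in 8-cell embryos, 45.3 in ICM and 44.7 in mESC. All 3 were below 5 FPKM in the early 2-cell embryo and above 50 FPKM in the 2-cell embryo, which makes differences of 4.37, 3.95 and 3.92 log2 units. Eif3i was at 89.5 FPKM in the 2-cell embryo, against 112 FPKM in the early 2-cell embryo and 68.7 FPKM in the zygote, and was highest in the 8-cell embryo at 254 FPKM. Eif3k was highest in mESC at 538 FPKM, and Eif3f was at 42.6 FPKM in mESC, against 10.5 FPKM in ICM. The near-identical copies Eif3j1 and Eif3j2, which encode the loosely bound j subunit, took turns. Eif3j1 was at 9.3 FPKM in MII oocytes, 0.0597 in zygotes, 0.0525 in early 2-cell, 0.0583 in 2-cell, 0.0705 in 4-cell and 0.0506 in 8-cell embryos, 15.4 in ICM and 0.177 in mESC. Eif3j2 was at 0.00328 FPKM in MII oocytes, 19.4 in zygotes, 31.5 in early 2-cell, 81.5 in 2-cell, 65.4 in 4-cell and 59.3 in 8-cell embryos, 26.4 in ICM and 21.8 in mESC. In each column the signal was unequally divided, with Eif3j1 ahead in MII oocytes and Eif3j2 ahead in the other 7 columns, though in ICM both exceeded 15 FPKM. Since the copies share most of their coding sequence, how reads were divided between them cannot be told apart from which was transcribed.

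Promoter sequence was examined because many eIF3 genes were higher together at this step. RefSeq's promoter table (build GRCm38.p6) holds windows of 300 bases, 250 before and 50 after the transcription start, for 50 of the 64 genes. The letters CCGGAAG, the core that ETS family factors bind, occurred on either strand in 17 of these 50 genes (34.0%) and in 2265 of all 17492 genes with a window (12.9%). The 12.9% also counts genes that were not detected here. Among genes with a window that reached 5 FPKM at the 2-cell step, 16 translation factor genes had the letters and 27 did not. Over all genes at that level 1292 had them and 4103 did not. Windows of the 3 eIF3 genes above and of Eif2ak4, which was lower in the 2-cell embryo, are shown for comparison, 80 bases before and 20 after the start, 5′ to 3′ on the gene's strand, with the letters in capitals on either strand (CTTCCGG is the reverse complement).
Eif3g, chr9:20898571-20898670, minus strand: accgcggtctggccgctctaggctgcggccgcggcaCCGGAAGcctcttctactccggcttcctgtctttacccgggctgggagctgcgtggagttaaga
Eif3m, chr2:105017008-105017107, minus strand: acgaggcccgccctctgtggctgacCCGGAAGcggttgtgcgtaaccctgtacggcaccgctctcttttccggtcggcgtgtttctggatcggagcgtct
Eif3c, chr7:126566347-126566446, minus strand: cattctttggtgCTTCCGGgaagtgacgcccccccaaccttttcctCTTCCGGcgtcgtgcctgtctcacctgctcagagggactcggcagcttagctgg
Eif2ak4, chr2:118388537-118388636, plus strand: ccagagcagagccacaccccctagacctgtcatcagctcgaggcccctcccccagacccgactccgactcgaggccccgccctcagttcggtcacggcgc
The letters begin 44 bases before the start in Eif3g, 55 bases before it in Eif3m, and 68 and 34 bases before it in Eif3c. At the step from early 2-cell to 2-cell, 9 of the 16 translation factor genes with the letters (56.2%) and 12 of the 27 without them (44.4%) were higher. Over all genes these shares were 39.2% with the letters and 32.6% without. The windows shown do not stand for all genes: Eif3a and Eif3b were higher at this step, by 3.67 and 3.21 log2 units, without the letters, and Eif1b and Eif4enif1 were lower, with differences of -2.51 and -1.73, with them. A match to 7 letters describes the window and does not show binding by any factor. The letters TCAAGGTCA, a site of the NR5A receptors, occurred in 0 of the 50 genes' windows and in 0.377% of all genes, and their absence from these windows says nothing of Nr5a2 binding elsewhere.

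The eIF2 trimer brings the initiator tRNA. All 6 genes of the eIF2 group were higher in the late stages, beside 39.0% of all genes, and their median difference was 1.85 log2 units. Eif2s2 was at 83.3 FPKM in MII oocytes, 106 in zygotes, 78.9 in early 2-cell, 136 in 2-cell, 267 in 4-cell and 400.1 in 8-cell embryos, 832 in ICM and 682 in mESC, the highest of the group; it encodes the beta subunit. Eif2s1, the alpha subunit that the kinases phosphorylate, was at 188 FPKM in ICM, against 23.5 FPKM in MII oocytes. The gamma subunit is encoded on both sex chromosomes. Eif2s3x was at 4.4 FPKM in MII oocytes, 11.6 in zygotes, 19.6 in early 2-cell, 35.1 in 2-cell, 44.1 in 4-cell and 79.6 in 8-cell embryos, 73.1 in ICM and 43 in mESC. Eif2s3y was at 0 FPKM in MII oocytes, 0.0577 in zygotes, 0 in early 2-cell, 2.18 in 2-cell, 6.98 in 4-cell and 2.19 in 8-cell embryos, 0.146 in ICM and 20.9 in mESC. The Y-linked copy was thus at or near 0 in oocytes, zygotes and early 2-cell embryos, was detected from the 2-cell embryo on and was nearly absent from the ICM column. There the Y-linked Ddx3y, Uty and Kdm5d were at 0.0255, 0 and 0.0107 FPKM, and Xist, the RNA of the inactive X chromosome, was at 19.8 FPKM. In mESC the same genes were at 2.81, 1.17 and 0 FPKM, with Xist at 0.796 FPKM. The part of embryo and cell sex in these values was not tested. The other 2 genes of the eIF2 group, Eif2a and Eif2d, encode proteins outside the trimer that can also place a tRNA on the ribosome, and reached 52.6 and 64.6 FPKM in ICM.

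Of the 5 subunits of eIF2B, the exchange factor of eIF2, 4 were higher in the late stages and Eif2b1 was lower. Of all genes 39.0% were higher and 35.6% lower. Eif2b1 was at 565 FPKM in MII oocytes, 261 in zygotes, 248 in early 2-cell, 84.7 in 2-cell, 178 in 4-cell and 209 in 8-cell embryos, 78.4 in ICM and 42.3 in mESC, so that the alpha subunit had the highest level of all 64 genes in the oocyte. Eif2b5, which encodes the catalytic epsilon subunit, was the opposite case. Eif2b5 was at 0.995 FPKM in MII oocytes, 0.913 in zygotes, 1.17 in early 2-cell, 13.2 in 2-cell, 35.7 in 4-cell and 29.5 in 8-cell embryos, 27 in ICM and 16.2 in mESC. These 2 subunits were thus closer in the 8-cell embryo than in the MII oocyte. Against the zygote alone Eif2b1 differed by -0.87 log2 units in the late stages, short of the threshold. Its level in the MII oocyte was the highest of its 8 values. Eif2b4 was at 12.9 FPKM in MII oocytes, 22.3 in zygotes, 6.78 in early 2-cell, 40.1 in 2-cell, 86 in 4-cell and 90 in 8-cell embryos, 27.6 in ICM and 23.9 in mESC; it encodes the delta subunit. All 5 subunit genes were at least 1 log2 unit higher in the 4-cell than in the 2-cell embryo (3 of 5 after median scaling), beside 24.1% of all genes, and 4 of 5 were lower in ICM than in the 8-cell embryo, beside 21.9% of all genes.

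The kinases that switch eIF2 off differed among themselves. Of the 2 of 4 kinase genes that reached 5 FPKM in this contrast, 0 were higher and 2 lower in the late stages, beside 39.0% and 35.6% of all genes. Eif2ak1, the heme-regulated kinase HRI, differed by -1.40 log2 units between the late and early means, but by -0.82 against the zygote alone. Eif2ak1 was at 154 FPKM in MII oocytes, 36.3 in zygotes, 28.7 in early 2-cell, 14.4 in 2-cell, 32.6 in 4-cell and 27.1 in 8-cell embryos, 8.92 in ICM and 3.54 in mESC. Eif2ak4, the amino acid sensor GCN2, differed by -3.13. Eif2ak4 was at 26.9 FPKM in MII oocytes, 8.76 in zygotes, 15.1 in early 2-cell, 1.8 in 2-cell, 0.655 in 4-cell and 0.843 in 8-cell embryos, 1.13 in ICM and 0.894 in mESC. Both were thus highest in the oocyte. Eif2ak3, the endoplasmic reticulum stress kinase PERK, was highest in the 2-cell embryo at 5.67 FPKM, against 0.428 FPKM in the early 2-cell embryo, and at most 3.17 FPKM elsewhere. Eif2ak2, the kinase PKR that senses double-stranded RNA, did not exceed 1.36 FPKM in any stage.

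The cap-binding eIF4E family differed in composition between the early and late columns. Of the 12 genes of eIF4F and its helpers, 5 were higher late and 2 lower, beside 39.0% and 35.6% of all genes. After median scaling 4 were higher and 2 lower, beside 36.0% and 39.0% of all genes. The lower pair were Eif4e1b, the paralogue known from oocytes, and Eif4e3. Eif4e1b was at 101 FPKM in MII oocytes, 77.5 in zygotes, 80.1 in early 2-cell, 9.13 in 2-cell, 0.78 in 4-cell and 0.238 in 8-cell embryos, 0.246 in ICM and 0 in mESC. Eif4e3 was at 257 FPKM in MII oocytes, 139 in zygotes, 101 in early 2-cell, 33.9 in 2-cell, 6.26 in 4-cell and 1.21 in 8-cell embryos, 0.443 in ICM and 0.11 in mESC. These were the 2 lowest late-minus-early differences of all 64 genes, at -5.95 and -5.76 log2 units. Eif4e2, which encodes the cap-binding repressor 4EHP, ran the other way. Eif4e2 was at 1.12 FPKM in MII oocytes, 2.85 in zygotes, 3.39 in early 2-cell, 49.4 in 2-cell, 70.2 in 4-cell and 67.4 in 8-cell embryos, 93.7 in ICM and 83.3 in mESC. The canonical Eif4e was detected throughout. Eif4e was at 100 FPKM in MII oocytes, 264 in zygotes, 223 in early 2-cell, 349 in 2-cell, 496 in 4-cell and 465 in 8-cell embryos, 104 in ICM and 56 in mESC. In the oocyte Eif4e3 therefore stood above Eif4e and Eif4e1b, which were close to each other, and from the zygote to the ICM Eif4e was the highest of the 4. All but Eif4e2 have a near-identical copy, which for Eif4e3 is the gene that overlaps it, so their absolute levels are uncertain.

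**Figure D2:**
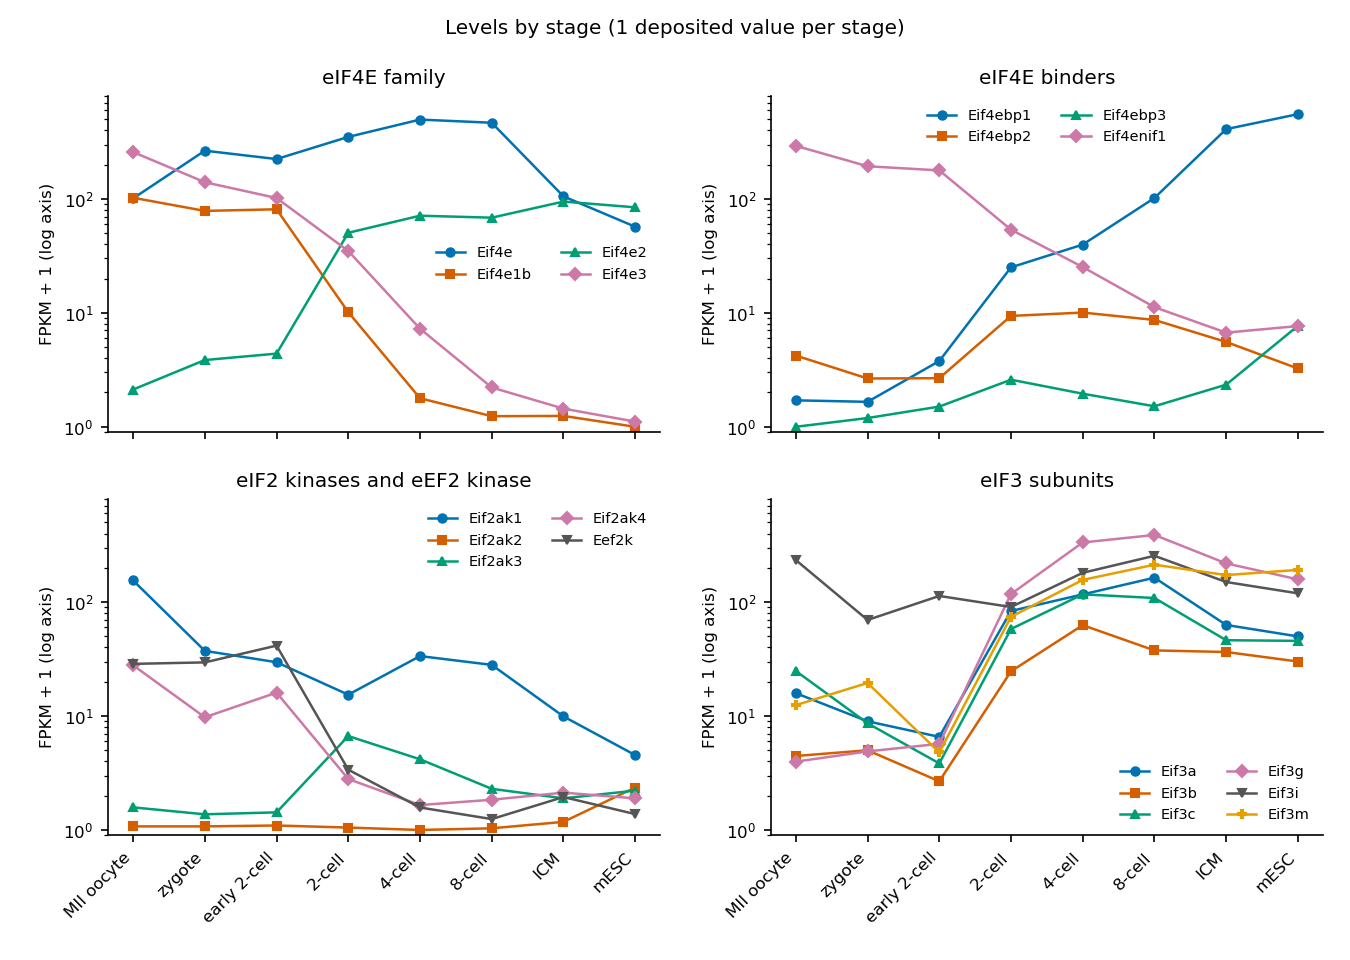
Lines give FPKM + 1 on a log axis in the 8 stages, 1 deposited value per stage, for the eIF4E paralogues, the eIF4E binders, the eIF2 kinases with the eEF2 kinase, and 6 eIF3 subunits. Eif4e2 and Eif4e1b cross between the early 2-cell and the 2-cell column, and 5 of the 6 eIF3 subunits are higher there while Eif3i is not.

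The helicase and scaffold parts of eIF4F were less uniform. Among the eIF4A helicases, Eif4a3, which serves in the exon junction complex rather than in eIF4F, had 46, 34.1 and 37.4 FPKM in MII oocytes, zygotes and early 2-cell embryos, and 171, 342 and 364 FPKM in 2-cell, 4-cell and 8-cell embryos. Eif4a1 was at 37.2 FPKM in MII oocytes, 51.4 in zygotes, 84.9 in early 2-cell, 27.7 in 2-cell, 85.3 in 4-cell and 93.7 in 8-cell embryos, 185 in ICM and 238 in mESC. Eif4a2 was at 131 FPKM in MII oocytes, 83.7 in zygotes, 60.9 in early 2-cell, 35.4 in 2-cell, 105 in 4-cell and 127 in 8-cell embryos, 209 in ICM and 72.6 in mESC. Both eIF4F helicases were lowest in the 2-cell embryo, Eif4a1 was highest in mESC and Eif4a2 in ICM. Of the scaffolds, Eif4g1 ranged between 6.41 and 50.8 FPKM with its highest value in the 4-cell embryo, Eif4g3 between 2.06 and 10.4 FPKM with its highest in the oocyte, and Eif4g2 (DAP5, which lacks the eIF4E-binding part) only between 38 and 84.1 FPKM. Eif4g2 was above both other scaffolds in every stage. Eif4h was at 1.32 FPKM in MII oocytes, 10.8 in zygotes, 6.86 in early 2-cell, 34 in 2-cell, 129 in 4-cell and 152 in 8-cell embryos, 81.4 in ICM and 50.8 in mESC; it encodes a cofactor of the helicase and had the largest difference of this group in the higher direction after Eif4e2, at 4.30 log2 units.

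The proteins that hold eIF4E away from eIF4G exchanged places. Eif4enif1 encodes 4E-T, which binds eIF4E in the repressed mRNA particles of oocytes, and Eif4ebp1 encodes the binding protein that mTORC1 phosphorylates. Eif4enif1 was at 291 FPKM in MII oocytes, 192 in zygotes, 177 in early 2-cell, 52.7 in 2-cell, 24.2 in 4-cell and 10.2 in 8-cell embryos, 5.7 in ICM and 6.66 in mESC. Eif4ebp1 was at 0.707 FPKM in MII oocytes, 0.656 in zygotes, 2.78 in early 2-cell, 24.1 in 2-cell, 38.7 in 4-cell and 101 in 8-cell embryos, 408 in ICM and 553 in mESC. The late-minus-early difference was -4.12 log2 units for Eif4enif1 and 5.75 for Eif4ebp1, and the order of the pair changed between the 2-cell and the 4-cell embryo. The other 2 binding proteins were low: Eif4ebp2 reached 9.06 FPKM in the 4-cell embryo and Eif4ebp3 6.69 FPKM in mESC.

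The small factors of start codon selection, eIF1 and eIF1A, each come as a pair of genes. Eif1 was at 133 FPKM in MII oocytes, 165 in zygotes, 327 in early 2-cell, 138 in 2-cell, 228 in 4-cell and 173 in 8-cell embryos, 172 in ICM and 94.9 in mESC. Eif1b was at 159 FPKM in MII oocytes, 296 in zygotes, 355 in early 2-cell, 61.3 in 2-cell, 60.9 in 4-cell and 46.8 in 8-cell embryos, 25.2 in ICM and 16.5 in mESC. Eif1b was above Eif1 up to the early 2-cell embryo and below it from the 2-cell embryo on, with a late-minus-early difference of -2.59 log2 units. Eif1ax was at 52.1 FPKM in MII oocytes, 135 in zygotes, 75.3 in early 2-cell, 56.8 in 2-cell, 63.1 in 4-cell and 141 in 8-cell embryos, 153 in ICM and 191 in mESC. Eif1a was at 0.4 FPKM in MII oocytes, 0.601 in zygotes, 3.43 in early 2-cell, 37.7 in 2-cell, 95.4 in 4-cell and 131 in 8-cell embryos, 130.2 in ICM and 72.2 in mESC. In the oocyte the X-linked Eif1ax made up nearly all of the pair, while in the 4-cell embryo Eif1a was the higher of the 2. Eif1 has 13 near-identical copies, so its level is among the least certain here.

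Among the factors of subunit joining and release, Eif5a, Eif5 and Eif6 were above the median level of the translation factor genes in every stage. Eif5b was not: in the 8-cell embryo it was at 50.5 FPKM, below the median of 91.8 FPKM there. Eif5a, the hypusine-bearing factor that helps the ribosome through difficult sequences, was the top gene of the group in zygotes, early 2-cell and 4-cell embryos. Eif5a was at 438 FPKM in MII oocytes, 314 in zygotes, 445 in early 2-cell, 345 in 2-cell, 1115 in 4-cell and 1316 in 8-cell embryos, 1604 in ICM and 378 in mESC. Its paralogue Eif5a2 stayed at or below 4.22 FPKM. Eif6 was at 31.9 FPKM in MII oocytes, 44 in zygotes, 46 in early 2-cell, 285 in 2-cell, 369 in 4-cell and 432 in 8-cell embryos, 143 in ICM and 66.8 in mESC; the protein keeps the large ribosomal subunit from joining the small one. Eif5 was at 203 FPKM in MII oocytes, 113 in zygotes, 121 in early 2-cell, 174 in 2-cell, 289.7 in 4-cell and 393 in 8-cell embryos, 109 in ICM and 60 in mESC; it encodes the GTPase activator of eIF2. Eif6 and Eif5 were both highest in the 8-cell embryo and were lower in ICM, Eif6 by 1.59 and Eif5 by 1.84 log2 units.

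All 5 measurable genes of the eEF1 group were higher in the late stages, beside 39.0% of all genes, and their median difference was 3.64 log2 units. Eef1a1 was at 38.6 FPKM in MII oocytes, 198 in zygotes, 236 in early 2-cell, 189 in 2-cell, 794 in 4-cell and 1614 in 8-cell embryos, 2848 in ICM and 1934 in mESC. In ICM it ranked at position 2 among all genes, a rank made uncertain by its 7 near-identical copies. Eef1a1 was between 300 and 419 FPKM in the 8-cell control libraries, against the 1614 FPKM of the 8-cell stage column. Its paralogue Eef1a2, known from muscle and neurons, was listed at 0 in all 8 stages. Eef1g was at 0 FPKM in MII oocytes, 1.76 in zygotes, 1.02 in early 2-cell, 10.3 in 2-cell, 74.8 in 4-cell and 178 in 8-cell embryos, 308 in ICM and 236 in mESC. This subunit of the exchange factor eEF1B had the largest late-minus-early difference of the 64 genes, 6.51 log2 units. Against the zygote alone its difference was 5.87 log2 units, below those of Eif1a (6.21), Eif4ebp1 (6.16) and Eif3g (5.96). The exchange subunits Eef1b2 and Eef1d reached 212 and 193 FPKM in ICM. The translocase and its inhibitory kinase were opposite. Eef2 was at 17.4 FPKM in MII oocytes, 11.3 in zygotes, 14.6 in early 2-cell, 29.6 in 2-cell, 189.8 in 4-cell and 162 in 8-cell embryos, 171 in ICM and 58.4 in mESC. Eef2k was at 27.7 FPKM in MII oocytes, 28.6 in zygotes, 40.5 in early 2-cell, 2.38 in 2-cell, 0.575 in 4-cell and 0.247 in 8-cell embryos, 0.946 in ICM and 0.378 in mESC. Eef2k was above Eef2 up to the early 2-cell embryo, and from the 2-cell embryo on it was at most 2.38 FPKM while Eef2 was at least 29.6 FPKM. Eef2kmt, the methyltransferase of eEF2, reached 13.6 FPKM in ICM.

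Step by step, most differences lay at the 2-cell and 4-cell stages. From the oocyte to the zygote 9 of 48 genes were higher and 6 lower, beside 12.6% higher and 21.6% lower of all genes (12 and 5 after median scaling, beside 913 and 1080 of 6198 genes), with Eef1e1 (a part of the tRNA synthetase complex) at 98.9 FPKM in zygotes, against 17.2 FPKM in MII oocytes. From the zygote to the early 2-cell embryo 0 of 46 were higher and 4 lower, beside 5.36% and 8.58% (1 and 4 of 47 after scaling, beside 451 and 355 of 6083 genes), with Eif3e at 9.49 FPKM in early 2-cell embryos, against 72.1 FPKM in zygotes. In the 2-cell embryo 29 of 56 were higher and 9 lower than in the early 2-cell embryo, beside 34.7% and 34.3% (29 and 12 after scaling, beside 2250 and 2938 of 7376 genes), and against the zygote the counts were 28 and 10 of 56, beside 33.7% and 36.3%. The share of higher genes thus exceeded the share over all genes at this step, and the share of lower genes was below it. In the 4-cell against the 2-cell embryo 24 of 55 were higher and 3 lower, beside 24.1% and 17.3% (18 and 3 after scaling, beside 1259 and 1243 of 6350 genes), with Eef2 higher by 2.64 and Eif3d by 2.37 log2 units. In the 8-cell against the 4-cell embryo 4 of 53 were higher and 3 lower, beside 6.90% and 9.71%. In ICM 4 of 53 were higher and 14 lower than in the 8-cell embryo, beside 27.8% and 21.9% (3 and 15 after scaling, beside 1572 and 1546 of 6273 genes), with Eif4e lower by 2.15 log2 units and Eif4ebp1 higher by 2.01. In mESC 3 of 54 were higher and 12 lower than in ICM as deposited, beside 11.6% and 40.6%, but 10 were higher and 3 lower after median scaling, beside 1698 and 1160 of 6349 genes, so the direction of this last step depends on the scaling for these factors and for all genes. Eif5a was at 378 FPKM in mESC, against 1604 FPKM in ICM.

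**Figure D3:**
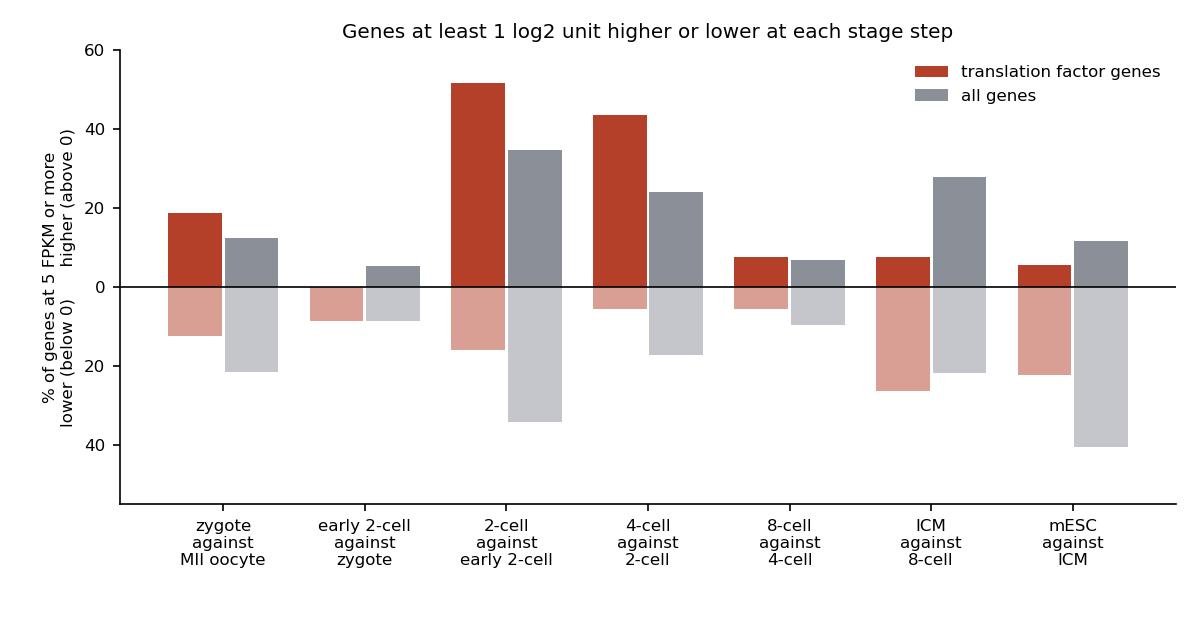
Bars give the percentage of genes at 5 FPKM or more in the higher stage that differed by at least 1 log2 unit at each step between stages, higher above 0 and lower below 0, for the translation factor genes (red) and all genes (grey), with 1 deposited value per stage. The red bars above 0 are tallest at the 2-cell and 4-cell steps (29 of 56 and 24 of 55 genes).

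Genes that act beside these factors were counted in the same contrast of late against early stages, in which 39.0% of all genes were higher and 35.6% lower. Of 8 termination and recycling genes at 5 FPKM, 6 were higher and 2 lower. Of 15 genes of poly(A) binding and cap regulation, 4 were higher and 6 lower (4 and 9 after median scaling). The cytoplasmic poly(A)-binding protein gene Pabpc1 and its oocyte paralogue Pabpc1l, named here after their values were seen, exchanged places. Pabpc1 was at 0.65 FPKM in MII oocytes, 0.376 in zygotes, 1.45 in early 2-cell, 49 in 2-cell, 45.6 in 4-cell and 59.6 in 8-cell embryos, 88.3 in ICM and 316 in mESC. Pabpc1l was at 18.6 FPKM in MII oocytes, 42.5 in zygotes, 79.4 in early 2-cell, 0.867 in 2-cell, 0.212 in 4-cell and 0.105 in 8-cell embryos, 0 in ICM and 0.107 in mESC. Of 10 mTORC1 pathway genes 3 were higher and 1 lower (3 and 3 of 9 after scaling), of 8 genes of the integrated stress response (the programme that follows eIF2 phosphorylation) 4 were higher and 0 lower (4 and 1 after scaling), and of 8 mitochondrial translation factor genes 1 was higher and 1 lower.

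After knockdown of Nr5a2, an orphan nuclear receptor, no translation factor of 8-cell embryos passed the test. The targeted transcript averaged 5.33 ± 1.54 FPKM in knockdown and 20.6 ± 5.39 FPKM in control libraries (SD, n = 4 each, two-sided exact permutation p = 0.0286, the smallest that this design allows). Of 8170 genes tested with limma, 185 had a Benjamini-Hochberg adjusted p under 0.05 (2.26%), 128 higher and 57 lower (75 and 80 after median scaling), and 0 of the 56 translation factor genes tested were among them, the lowest adjusted p being 0.0808. At an unadjusted p under 0.05 there were 10 of the 56, beside 20.6% of all genes. The median log2 fold change was 0.067 over the 56 genes and 0.12 over all genes, and 32 of the 56 were positive, beside 60.5% of all genes. Scaling the libraries to a common median shifted these fold changes by about 0.1, which left 25 positive and 31 negative, with a median of -0.043. Over all 8162 genes then tested 4211 were positive and 3951 negative, with a median of 0.017. After that scaling 1 translation factor gene, Eif4h, had a limma adjusted p under 0.05. The groups did not overlap for 1 gene that was higher and 4 that were lower, beside 8.38% and 3.45% of all genes.

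The 6 genes with the smallest p in each direction were spread over the roles. Eif4h was at 175, 133, 174 and 166 FPKM in the knockdown libraries, against 271, 214, 215 and 254 FPKM in the control libraries (log2 fold change -0.56, SE 0.153, limma adjusted p = 0.0808). Eef2 was at 223, 214, 266 and 261 FPKM in the knockdown libraries, against 378, 402, 278 and 329 FPKM in the control libraries (log2 fold change -0.52, SE 0.155, limma adjusted p = 0.105). Eif3a was at 59, 49.4, 47.1 and 59.9 FPKM in the knockdown libraries, against 85.6, 67.7, 66 and 79.7 FPKM in the control libraries (log2 fold change -0.47, SE 0.169, limma adjusted p = 0.157). For these 3 genes of the helicase cofactor, the translocase and the largest eIF3 subunit, every knockdown library was below every control library. Eif6 was at 437, 338, 352 and 335 FPKM in the knockdown libraries, against 418, 439, 490.1 and 532 FPKM in the control libraries (log2 fold change -0.36, SE 0.141, limma adjusted p = 0.178). Eif4e was at 58.7, 51, 105 and 42.6 FPKM in the knockdown libraries, against 98.3, 86.8, 97.4 and 77.8 FPKM in the control libraries (log2 fold change -0.56, SE 0.251, limma adjusted p = 0.234). In both of these the groups overlapped through 1 knockdown library, replicate 1 for Eif6 and replicate 3 for Eif4e. Without knockdown replicate 3 the log2 fold change of Eif4e was -0.82, with a limma adjusted p of 0.0455. Eif2b5 was at 26.6, 35, 43.2 and 47.2 FPKM in the knockdown libraries, against 83.5, 75.7, 44.9 and 37.4 FPKM in the control libraries (log2 fold change -0.61, SE 0.281, limma adjusted p = 0.249), and here the control libraries were spread more widely than the knockdown libraries.

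On the positive side, Eif2a was at 41.7, 36.9, 31.5 and 34.3 FPKM in the knockdown libraries, against 27.4, 21.9, 25.7 and 20.5 FPKM in the control libraries (log2 fold change 0.58, SE 0.184, limma adjusted p = 0.119), so that all 4 knockdown libraries lay above all 4 controls. Eif3k was at 383, 356, 454 and 447 FPKM in the knockdown libraries, against 269.8, 294, 146 and 363 FPKM in the control libraries (log2 fold change 0.68, SE 0.242, limma adjusted p = 0.155). Control replicate 3 was the lowest of the 8 libraries for Eif3k and control replicate 4 reached into the range of the knockdown libraries. Eif2s1 was at 48.1, 38.3, 35.7 and 47.4 FPKM in the knockdown libraries, against 30, 27, 27.9 and 38.6 FPKM in the control libraries (log2 fold change 0.45, SE 0.191, limma adjusted p = 0.214). Eif3e was at 92.4, 81.9, 63.8 and 89.9 FPKM in the knockdown libraries, against 61.7, 66.4, 64 and 48.4 FPKM in the control libraries (log2 fold change 0.44, SE 0.181, limma adjusted p = 0.2). Eif4e2 was at 61.8, 82.2, 70.6 and 69.7 FPKM in the knockdown libraries, against 46.7, 51.2, 51.8 and 65.2 FPKM in the control libraries (log2 fold change 0.40, SE 0.171, limma adjusted p = 0.213). The groups overlapped for each of these 3 genes. The eIF3 subunits were thus divided, with 8 of 13 tested positive, beside 60.5% of all genes, and 5 negative. Their fold changes lay between -1.28 and 0.68. The most negative was Eif3f. Eif3f was at 10.8, 16, 17.4 and 25.5 FPKM in the knockdown libraries, against 139, 65.3, 32.7 and 9.97 FPKM in the control libraries (log2 fold change -1.28, SE 0.612, limma adjusted p = 0.261), where the control libraries spanned the knockdown range. The summed share of the 64 genes was 2.58 ± 0.130% of all FPKM in knockdown and 2.72 ± 0.0160% in control libraries (SD, n = 4 each). Trophectoderm markers summed to 45.7 to 104 FPKM in knockdown and 17.1 to 59.1 FPKM in control libraries, and pluripotency markers to 39.7 to 145 FPKM in knockdown and 118 to 217 FPKM in control libraries; their part in these differences was not tested.

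**Figure D4:**
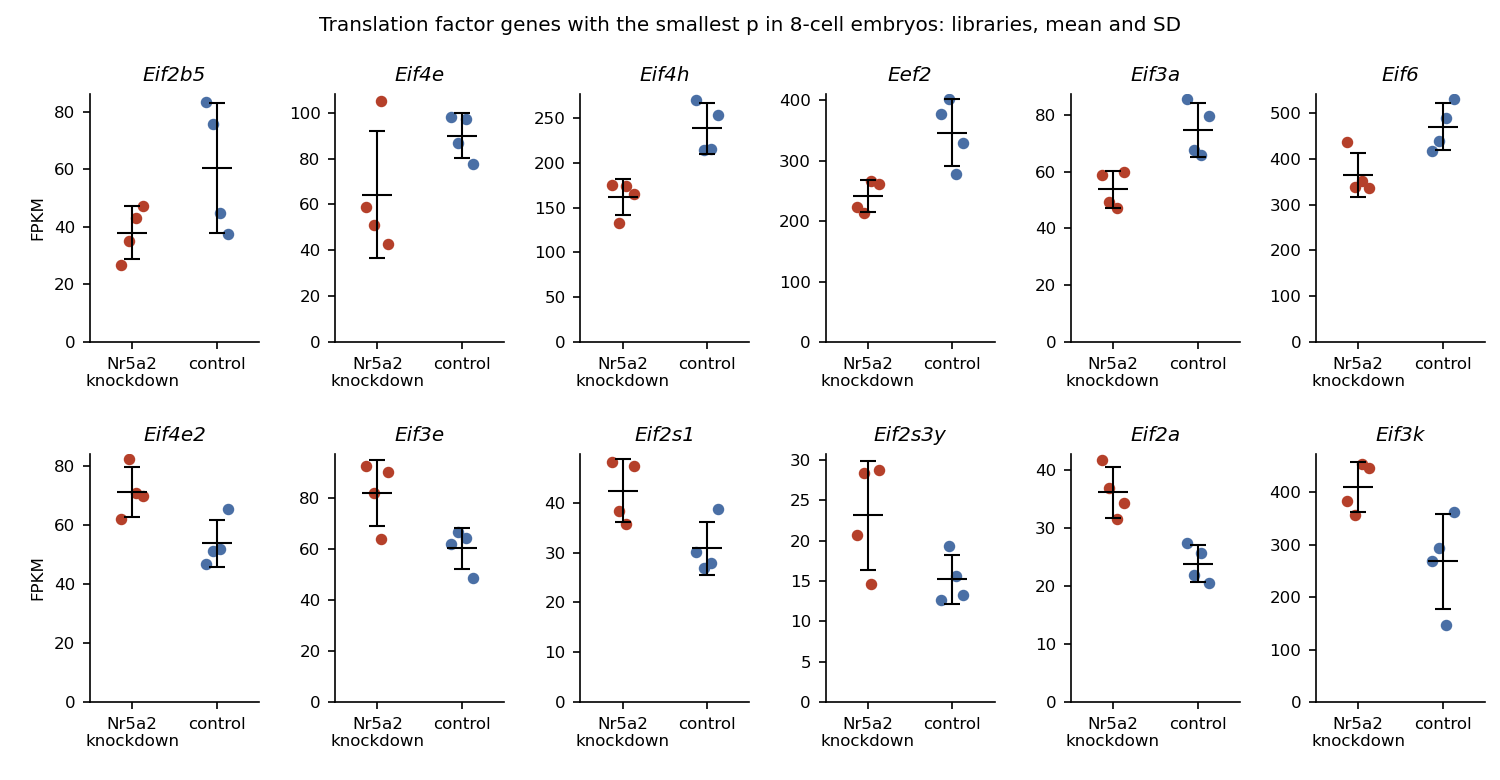
Points are FPKM in single 8-cell libraries, with the mean and SD (n = 4 each), for the 6 translation factor genes with the smallest p in the lower direction (top) and the 6 in the higher direction (bottom), Nr5a2 knockdown left of control. Knockdown and control points do not overlap for Eif4h, Eef2, Eif3a and Eif2a.

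None of the 5 lists of neighbouring genes had a member with an adjusted p under 0.05 in the Nr5a2 knockdown (13 poly(A) and cap, 11 mTORC1, 8 termination, 7 stress response and 7 mitochondrial genes tested). Pdcd4, which encodes an inhibitor of eIF4A, averaged 6.85 ± 3.52 FPKM in knockdown and 1.66 ± 1.58 FPKM in control libraries (SD, n = 4 each; log2 fold change 1.61, SE 0.411, limma adjusted p = 0.0653). Trib3, a target of the stress response, averaged 8.13 ± 4.96 FPKM in knockdown and 3.17 ± 1.19 FPKM in control libraries (SD, n = 4 each; log2 fold change 1.02, SE 0.386, limma adjusted p = 0.169). Rptor, the mTORC1 subunit Raptor, averaged 1.12 ± 0.299 FPKM in knockdown and 2.57 ± 1.13 FPKM in control libraries (SD, n = 4 each; log2 fold change -0.71, SE 0.269, limma adjusted p = 0.172). Of the termination and recycling genes 7 of 8 were positive, with a median of 0.42, beside 60.5% of all genes and a median of 0.12. Mcts1, a recycling factor, averaged 30.2 ± 5.73 FPKM in knockdown and 19.5 ± 3.89 FPKM in control libraries (SD, n = 4 each; log2 fold change 0.60, SE 0.212, limma adjusted p = 0.149). Of the mTORC1 genes 3 of 11 were positive, with a median of -0.21.

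Knockdown of Gata4, a transcription factor of the primitive endoderm, was likewise accompanied by 0 called translation factors in blastocysts. Gata4 averaged 0.0920 ± 0.184 FPKM in knockdown (n = 4) and 3.11 ± 2.36 FPKM in control libraries (n = 3; SD, two-sided exact permutation p = 0.0571, also the smallest its design allows). Of 8782 genes tested with limma 3 had an adjusted p under 0.05 (0.0342%) and 202 an unadjusted p under 0.05 (2.30%), while 0 of the 57 translation factor genes tested passed either threshold. Their median log2 fold change was 0.055, beside -0.017 over all genes, and 36 of 57 were positive, beside 47.5% of all genes. This split followed single libraries. Without control replicate 2, 52 of 57 were positive, beside 6155 of 9048 genes, and without knockdown replicate 1, 12 of 56, beside 2461 of 8362. After quantile normalization 30 of 57 were positive, beside 4474 of 8782 genes. Eef2kmt was at 8.24, 7.23, 2.94 and 3.48 FPKM in the knockdown libraries, against 9.24, 12.1 and 7.04 FPKM in the control libraries (log2 fold change -0.76, SE 0.424, limma adjusted p = 1), which was the smallest p among the 57. Eef2 was at 173, 139, 109 and 142 FPKM in the knockdown libraries, against 116, 222 and 192 FPKM in the control libraries (log2 fold change -0.29, SE 0.401, limma adjusted p = 1). Eif3k was at 537, 346, 236 and 266 FPKM in the knockdown libraries, against 209.6, 402 and 189 FPKM in the control libraries (log2 fold change 0.39, SE 0.404, limma adjusted p = 1). The other genes named by rank here, Eif2ak3, Eif3b, Eif3c, Eif3f, Eif3j1, Eif4g1, Eif4g3 and Eif5, had log2 fold changes between -0.37 (Eif3b) and 0.42 (Eif3f). The groups overlapped for each of these genes and for all 57 (0 of 57 apart, beside 0.945% of all genes higher and 1.43% lower without overlap).

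A larger division among the blastocyst libraries ran across the groups. Rn45s was listed at 0 in knockdown replicates 1 and 2 and control replicate 2, and at 37959 to 44718 FPKM in the other 4 libraries. In a model that also held the knockdown, 50 of the 57 translation factor genes were lower in the libraries with Rn45s than in those without, and 0 were higher, at an adjusted p under 0.05 (limma), with a median of -0.87. Over all 8782 genes 51.0% were lower and 0.159% higher, with a median of -0.64. The median deviation of the translation factor genes from their own means was 0.61 and 0.37 in knockdown replicates 1 and 2 and 0.53 in control replicate 2. It was -0.63 and -0.36 in knockdown replicates 3 and 4, and -0.34 and -0.38 in control replicates 1 and 3. With the presence of Rn45s as a covariate, 19 of the 57 genes were positive and 38 negative for the knockdown, with a median of -0.085. Over all 8782 genes 2838 were positive and 5944 negative in that fit, with a median of -0.13. None of the 57 genes had a limma adjusted p under 0.05.

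The gene with the largest fold change in the Gata4 comparison was the Y-linked Eif2s3y. Eif2s3y was at 24.4, 25.5, 0 and 0.0576 FPKM in the knockdown libraries, against 12.6, 0.0462 and 0 FPKM in the control libraries (log2 fold change 1.09, SE 0.856, limma adjusted p = 1). The values formed a high set of 3 libraries and a set of 4 at or near 0, in both groups. The Y-linked Ddx3y was at 4.67 and 4.29 FPKM in knockdown replicates 1 and 2, at 1.73 FPKM in control replicate 1 and at or below 0.0131 FPKM in the other 4 libraries. Xist, the RNA of the inactive X chromosome, was at 0.191 to 0.716 FPKM in those 3 libraries and at 12.5 to 39.1 FPKM in the other 4. In the 8-cell libraries Eif2s3y was at 20.8, 28.4, 14.7 and 28.8 FPKM in the knockdown libraries, against 12.6, 19.3, 15.7 and 13.2 FPKM in the control libraries (log2 fold change 0.55, SE 0.251, limma adjusted p = 0.246). Xist did not exceed 0.0121 FPKM in the 8-cell libraries, against 15.2 FPKM in the 8-cell stage column, a difference that was not tested. The other Y-linked genes differed in direction there. Ddx3y averaged 5.63 ± 1.41 FPKM in knockdown and 7.12 ± 0.765 FPKM in control libraries (SD, n = 4 each). Uty averaged 1.34 ± 0.638 and 0.129 ± 0.0521 FPKM, and Kdm5d 0.342 ± 0.212 and 0.212 ± 0.159 FPKM.

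**Figure D5:**
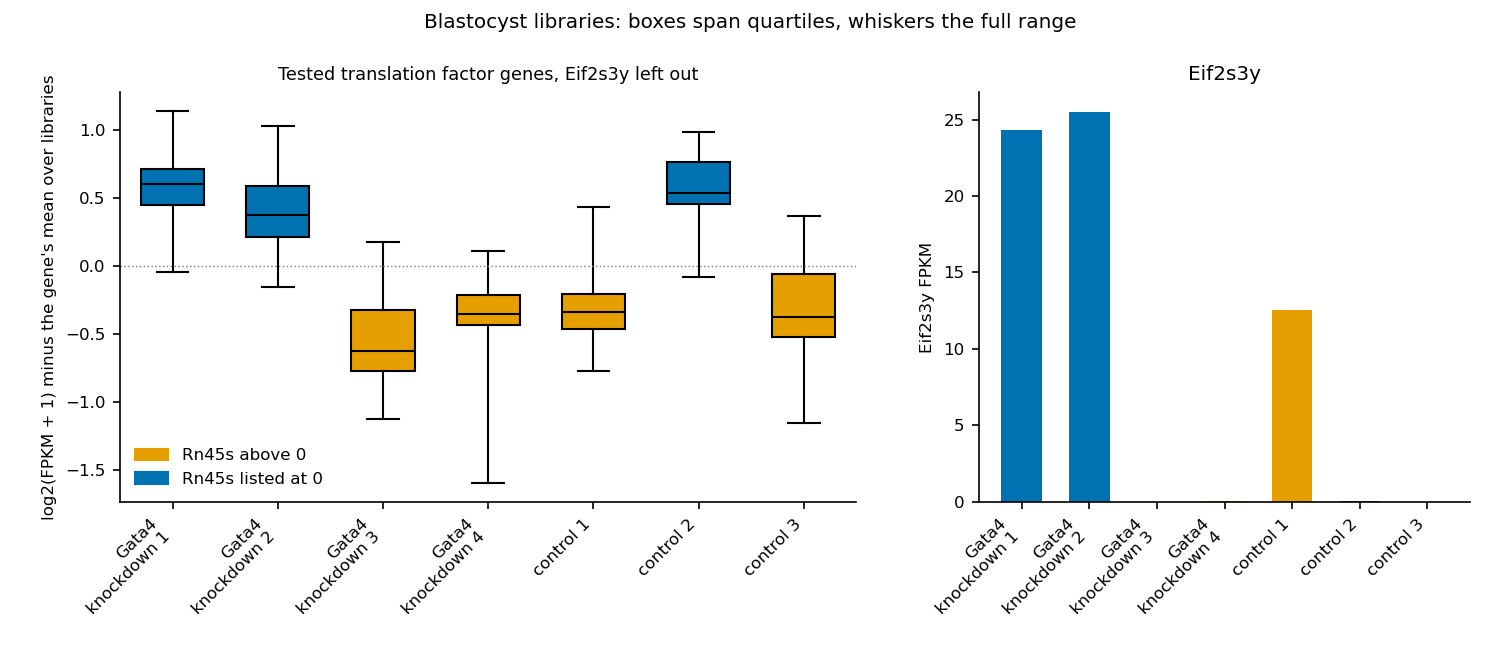
The left panel gives, for each blastocyst library, the deviation in log2(FPKM + 1) of 56 tested translation factor genes from their means over the libraries (box, quartiles and median; whiskers, full range), coloured by whether Rn45s was listed at 0 (blue) or above 0 (orange), with Eif2s3y left out. The right panel gives Eif2s3y in FPKM per library. The boxes of the 3 libraries without Rn45s lie above 0 and those of the other 4 below 0, while Eif2s3y is high in knockdown 1 and 2 and control 1.

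Among the neighbouring gene lists 0 genes had an adjusted p under 0.05 in the Gata4 comparison. Of the 7 stress response genes tested 1 was positive, with a median of -0.54, beside 47.5% of all genes and a median of -0.017. Asns, asparagine synthetase, averaged 31.7 ± 20.4 FPKM in knockdown and 78.6 ± 18.2 FPKM in control libraries (SD, n = 4 and 3; log2 fold change -1.52, SE 0.487, limma adjusted p = 0.76), and Trib3 averaged 3.35 ± 2.73 FPKM in knockdown and 12.3 ± 12.3 FPKM in control libraries (SD, n = 4 and 3; log2 fold change -1.44, SE 0.551, limma adjusted p = 1). Akt1s1, the mTORC1 inhibitor PRAS40, averaged 8.16 ± 1.38 FPKM in knockdown and 17.3 ± 6.44 FPKM in control libraries (SD, n = 4 and 3; log2 fold change -0.94, SE 0.42, limma adjusted p = 1).

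The 8-cell embryo was measured in both kinds of table, which were normalized separately, so the levels are set side by side and not tested. Among 37 translation factor genes without a near-identical copy the stage value was a median of 1.10 times the mean of the control libraries of the knockdown table, and 28 lay within a factor of 2. Among 16 genes with such a copy the median ratio was 3.57 and 10 lay above 2. Over 5795 genes the median was 1.24, with 27.7% above 2. Eif2s3x was at 79.6 FPKM in the 8-cell stage column and between 1.71 and 2.01 FPKM in the 8-cell control libraries, and Eif4e at 465 FPKM in the stage column and between 77.8 and 98.3 FPKM in the controls. The j subunit pair was reversed: Eif3j2 was at 59.3 FPKM and Eif3j1 at 0.0506 FPKM in the stage column, while in the control libraries Eif3j2 did not exceed 0.00729 FPKM and Eif3j1 was between 2.81 and 4.44 FPKM. Eif4ebp1, which has no such copy, was at 101 FPKM in the stage column and between 238 and 326 FPKM in the control libraries. The 2 tables thus differed more often for genes with copies than for those without, which was not tested. Rn45s was listed at 0 in the 8-cell stage column and at 24968 to 29618 FPKM in the 8-cell control libraries, and its part in these differences was not tested.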

How the data were processed

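RNA was sequenced from 32 mouse samples, read from 3 tables of FPKM values as deposited by the authors. Per the submitters' processing notes, CASAVA 1.8 called the bases and STAR 2.4.0 aligned the reads to mm9 for all samples. Cufflinks 2.2.1 is listed there for 20 of the 32 samples. The tool behind the values of the 8-cell knockdown table and of the MII and early 2-cell samples, the annotation, and the way the replicates of a stage became 1 column are not given in the sources used here. Of the stage table's cells 30 had no value, all in MII oocytes and none in the genes described.

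Read totals were not given. Steps in values below 0.4 FPKM put the depth of the 8-cell knockdown libraries within 2.9-fold of each other (24 of 28 pairs within 0.05 log2 units), while no such fit was obtained for the blastocyst libraries (0 of 21 pairs), so their depth is unknown. Total FPKM was 234738 to 495643 per stage. Pearson correlations between replicates of a knockdown group were at least 0.923.

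Samples were grouped by their labels. In each knockdown table a gene was kept where its value reached 1 FPKM in a number of libraries equal to the smaller group, and kept genes were compared on log2(FPKM + 1) with limma 3.58.1 (R 4.3.3), with a trend in the prior variance, using only the libraries of that comparison. Fold changes are knockdown over control on this scale, which understates those of low genes. P-values were Benjamini-Hochberg adjusted over all genes tested, with 0.05 as threshold. Of the 64 genes, 8 in the 8-cell and 7 in the blastocyst table did not pass the filter. The procedure was tested on simulated data. Separate cultures or litters are not named in the labels, so p-values measure the spread between these libraries only. The targeted genes were tested with exact permutation over all 70 and 35 arrangements of the libraries.

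Genes with a copy were those whose coding sequence matched a GENCODE transcript of another gene name with at least 95% identity over at least 50% of its length (blastn 2.17.0). Overlapping genes were not left out of this search. Promoter letters were searched on both strands.

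Named in the knockdowns were all genes past the threshold and the 6 with the smallest p in each direction, for each stage step the 3 genes that differed most in either direction, and always the paralogue sets and kinases. Neighbouring lists gave their called genes and up to 2 examples with the smallest p. The genes and lists were chosen with earlier results of these data known. Alternatives were the pseudocount, the filter, scaling, a replicate block, Rn45s as a covariate and leaving out each library. Leaving out genes with a copy or the MII column, the zygote as the early stage, and scaling in the contrast of late with early stages were chosen after seeing the data.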

Additional observations from a re-analysis of the deposited data

Results flagged for a closer look

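Dixon's test for a single deviating sample was applied to the groups of 4 libraries for the named genes, 36 groups in all, and marked 1 of them, where chance marks about 1 in 20. Eif6 in Nr5a2 knockdown replicate 1 was at 437 FPKM, while the other 3 knockdown libraries lay between 335 and 352 FPKM. Its gap to the nearest of these was 0.833 of the range of the group, above the critical value for 4 samples. No other gene named for the 8-cell libraries, and none named for the blastocyst knockdown libraries, was marked.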

How the results depend on the processing

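Beside the 185 genes called in the Nr5a2 comparison, the count was 108 with a pseudocount of 0.1, 11 with no filter on low values, 55 with the replicate block, and 21 (without control replicate 1) to 285 (without knockdown replicate 3) on leaving out a library. Translation factors called were 1 with median scaling (Eif4h, log2 fold change -0.68, limma adjusted p = 0.0481) and 0 to 1 on leaving out a library, the 1 being Eif4e without knockdown replicate 3. Beside the 3 genes called in the Gata4 comparison, the count was 1 with a pseudocount of 0.1 and 0 with no filter, a filter of 5 FPKM, median scaling, quantile normalization, the Rn45s covariate, or the libraries with Rn45s only. It was 18 with the replicate block and 1 (without control replicate 1) to 27 (without knockdown replicate 2) on leaving out a library. Translation factors called there were 0 under every alternative except the replicate block, which called 1, Eif2s3y (1.86, limma adjusted p = 0.0165). Correlations between the deviations of same-numbered libraries were 0.04, 0.08, -0.11 and -0.0016 in the 8-cell libraries and -0.10, 0.28 and 0.02 in the blastocysts. Those of differently numbered libraries lay between -0.19 and 0.20 in the 8-cell libraries and between -0.36 and 0.50 in the blastocysts. The 0.28 belongs to replicate 2, for which Rn45s was listed at 0 in both groups. So few pairs cannot decide whether the numbers pair the libraries. On leaving out a blastocyst library the fold change of Eif5 ranged between -0.011 (without control replicate 3) and 0.88 (without control replicate 2), and that of Eif3c between -0.65 (without control replicate 1) and 0.016 (without control replicate 2), so both turned sign in 1 setting. In the stages, leaving out genes with a copy left 9 genes past the threshold at the zygote step, 2 at the early 2-cell step and 4 at the 8-cell step, and a pseudocount of 5 left 4 at the 8-cell step. Where a result moved, the cause was not tested beyond the smaller number of genes or libraries some alternatives use.

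Without Eef1a1 the summed share was 0.735% in MII oocyte, 0.97% in zygote, 1.04% in early 2-cell, 1.59% in 2-cell, 2.31% in 4-cell, 2.6% in 8-cell, 2.24% in ICM and 1.73% in mESC. In 8-cell libraries it was 2.37% in Nr5a2 knockdown 3, 2.55% in control 2 and 2.59% in control 3, and in blastocysts 1.49% in Gata4 knockdown 1, 1.42% in Gata4 knockdown 2, 1.58% in control 2 and 1.36% in control 3. With Rn45s in the total it was 0.733% in MII oocyte, 1.09% in early 2-cell and 2.28% in mESC. In 8-cell libraries it was then 2.37% in Nr5a2 knockdown 1, 2.24% in Nr5a2 knockdown 2, 2.31% in Nr5a2 knockdown 3, 2.58% in Nr5a2 knockdown 4, 2.5% in control 1, 2.45% in control 2, 2.45% in control 3 and 2.48% in control 4, and in blastocysts 1.19% in Gata4 knockdown 3, 1.2% in Gata4 knockdown 4, 1.26% in control 1 and 1.28% in control 3. Precision is limited by 1 value per stage and by 3 or 4 libraries per group, by near-identical copies, and by FPKM being a share of each library: total RNA per embryo was not measured. Differences of stages rest on single deposited values, and those that involve the MII or early 2-cell column also on columns whose processing tool is not given.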
